A study of Mus musculus with 12 samples.

Results

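Interferon-stimulated genes are the genes that cells switch on when they sense interferon. The 9 genes described here, Stat2, Irf7, Irf9, Ifih1, Isg15, Ifit1, Ifit2, Ifit3 and Bst2, were chosen by symbol from an array that measured 65956 transcript clusters, and those clusters that carry 1 symbol stand for 37012 genes. A transcript cluster is the set of probes for 1 gene, and each of the 9 had exactly 1 such cluster, so all 9 were measured. RNA came from keratinocytes, the epithelial cells of the epidermis, which had been isolated from skin of FVB/N mice on postnatal day 4 and sorted by FACS. The 12 arrays formed 4 groups of 3, which were bitransgenic (BT) basal, wild-type (WT) basal, BT suprabasal and WT suprabasal cells. The title of the series names progerin, a truncated lamin A that causes a premature ageing disease, but the labels describe neither the transgenes of the BT mice nor the promoter that drives them. In the titles, basal samples carry the word high and suprabasal samples the word low, and the sort marker is not named. Whether the 7 sample codes stand for separate animals is not stated, and the p-values therefore reflect the spread among these samples alone, which may be technical.

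Type I interferons bind a receptor whose kinases phosphorylate STAT proteins, STAT2 among them. These join IRF9 in the complex ISGF3, which binds the interferon-stimulated response element, a repeat of GAAA blocks, in the promoters of its target genes. Promoter sequences, where such an element would lie, are shown for the 3 members that varied together over the arrays (Isg15, Ifih1 and Ifit1) and for Irf9, the member with the lowest p-values between genotypes. Each window runs from 250 bases before to 50 bases after the RefSeq gene start (GRCm38.p6), 5' to 3' on the gene's own strand. Matches to GAAANNGAAA on either strand are in capitals, so a match on the other strand reads TTTCNNTTTC, and overlapping matches run together. The windows are Isg15 at chr4:156200769-156201068 (minus strand), Ifih1 at chr2:62646206-62646505 (minus), Ifit1 at chr19:34640639-34640938 (plus) and the first of 2 Irf9 windows at chr14:55603735-55604034 (plus).
Isg15: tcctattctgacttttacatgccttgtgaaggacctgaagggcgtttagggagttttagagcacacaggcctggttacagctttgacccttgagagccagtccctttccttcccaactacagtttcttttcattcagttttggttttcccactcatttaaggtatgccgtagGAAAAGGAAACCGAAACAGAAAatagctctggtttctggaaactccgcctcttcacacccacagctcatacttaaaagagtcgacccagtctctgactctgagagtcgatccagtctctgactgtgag
Ifih1: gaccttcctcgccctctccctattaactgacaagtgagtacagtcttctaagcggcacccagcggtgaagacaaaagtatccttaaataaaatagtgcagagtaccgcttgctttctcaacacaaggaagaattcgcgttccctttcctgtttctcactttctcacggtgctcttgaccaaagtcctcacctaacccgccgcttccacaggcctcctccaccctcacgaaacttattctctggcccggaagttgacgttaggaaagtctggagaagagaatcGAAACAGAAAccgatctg
Ifit1: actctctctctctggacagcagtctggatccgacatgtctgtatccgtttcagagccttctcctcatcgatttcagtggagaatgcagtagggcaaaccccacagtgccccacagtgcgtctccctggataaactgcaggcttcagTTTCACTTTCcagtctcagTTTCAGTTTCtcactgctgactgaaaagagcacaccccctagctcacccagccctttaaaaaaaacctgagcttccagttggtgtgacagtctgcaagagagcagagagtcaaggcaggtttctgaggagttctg
Irf9: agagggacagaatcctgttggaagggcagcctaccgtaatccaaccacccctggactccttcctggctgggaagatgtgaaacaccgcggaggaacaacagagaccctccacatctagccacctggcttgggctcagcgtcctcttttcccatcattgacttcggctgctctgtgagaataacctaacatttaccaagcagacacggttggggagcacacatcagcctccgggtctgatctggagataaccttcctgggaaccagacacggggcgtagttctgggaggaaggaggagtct

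The Isg15 window held 3 overlapping matches in 1 run of 22 bases, from 78 to 57 bases before the start. The Ifit1 window held 2 separate matches on the other strand, at 104 to 95 and 85 to 76 bases before the start. The single Ifih1 match lay after the start, at bases 33 to 42. In the same capitals, with flanks of 8 bases, the matches of the other members that had any were these, read on the gene's strand at chr8:71537579-71537610 (minus) for Bst2, chr10:128270268-128270293 (plus) for Stat2, and chr19:34583365-34583390 and chr19:34583399-34583424 (plus) for Ifit3.
Bst2: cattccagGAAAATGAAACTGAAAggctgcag
Stat2: caccctggTTTCAGTTTCctttccct
Ifit3, farther from the start: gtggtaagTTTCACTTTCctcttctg
Ifit3, nearer to the start: taagtctgTTTCAGTTTCtactttcc

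In all, 6 of 9 members (66.7%) had a match in a window, and all 9 had a window in the RefSeq table. The windows of Irf7, of Irf9 (2 windows) and of Ifit2 (2 windows) held none. Of all 32851 promoter windows of the same length, 3.44% held the motif, as did 3.99% of 27025 genes. Of 42 other interferon-stimulated genes with a window, 20 (47.6%) had a match. A match describes letters in this window and does not show that a factor binds there.

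Signals were log2 values, with array medians between 5.28 and 5.46. The background was read from 5222 control probe sets that lie in introns, whose 95th percentile on each array, between 8.04 and 8.81, is called the background mark. Between 7.14% and 12.28% of clusters lay above the mark of their array. Krt5 and Krt14 of 6 basal markers, and Krt1, Krt10, Krtdap and Sbsn of 7 suprabasal markers, were above it on all 12 arrays. The rest passed on at least 1 array, so keratinocyte genes were present. Basal minus suprabasal, the 6 basal markers had a median difference of 0.59 in WT and 0.62 in BT cells. For the 7 suprabasal markers it was -0.56 and -0.31. All 6 were higher and all 7 lower in basal cells in both genotypes. Between layers 0 of them passed the test (limma, adjusted p under 0.05), so the layers are named by the sample titles. Of 10 measured immune cell markers, 0 were above the mark on any array. Their mean level was 5.34 to 5.44 in BT basal, 5.27 to 5.41 in WT basal, 5.38 to 5.40 in BT suprabasal and 5.48 to 5.52 in WT suprabasal arrays. Of 6 fibroblast and endothelial markers, 0 were above the mark. The mean level of 8 melanocyte markers ran from 6.19 to 7.06 in BT basal, from 5.98 to 6.59 in WT basal, from 7.68 to 11.32 in BT suprabasal and from 9.58 to 11.04 in WT suprabasal arrays, so pigment cell markers were higher in suprabasal arrays. Their part in the layer differences was not tested. Xist, the X-inactivating RNA of female cells, was at least 10.69 on the BT arrays of codes X667_05, X722_07 and X682_05 and at most 4.28 on all WT arrays and on both BT arrays of code X721_05, so genotype groups also differed in sex pattern. In bulk RNA, fewer cells of a type and less RNA per cell cannot be told apart.

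None of the 9 members exceeded the background mark on any of the 12 arrays, in any of the 4 groups. The share of all clusters above the mark on all 3 arrays was 9.22% in BT basal, 8.05% in WT basal, 6.87% in BT suprabasal and 7.19% in WT suprabasal cells. Of all 37012 genes, 79.6% were above it on no array and 9.31% on all 12, so a gene below it is the common case. Stat2 came nearest, with a signal minus mark of -0.53 on its closest array. For Bst2 that value was -0.73 and for Irf9 it was -0.74. The remaining 6 members stayed at -1.61 or further from it on every array.

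The place of each member among the intronic controls of the same array gives an order that does not depend on the threshold. Stat2 exceeded a median of 88.9% of the controls (85.4% to 91.6% over 12 arrays) and Irf9 a median of 86.7% (82.2% to 89.8%). Bst2 followed at 79.9% (74.6% to 89.9%) and Irf7 at 75.8% (68.6% to 79.2%). Isg15 exceeded 63.6% (50.5% to 71.0%), Ifit1 57.1% (44.9% to 62.2%), Ifih1 56.0% (40.6% to 66.1%) and Ifit3 52.8% (47.4% to 59.3%). Ifit2 was last, at 38.4% (32.8% to 42.8%), and lay under the median of the controls on every array. The ranges of neighbours in this order overlapped, except those of Ifit3 and Ifit2. The 3 signalling members thus sat among the upper controls with Bst2. The sensor Ifih1 and the effectors Isg15, Ifit1 and Ifit3 sat nearer the middle of the controls, and Ifit2 below it. The order places clusters within the controls, and probe sets of different genes bind RNA with different strength, so it is no order of RNA amounts.

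**Figure D1:**
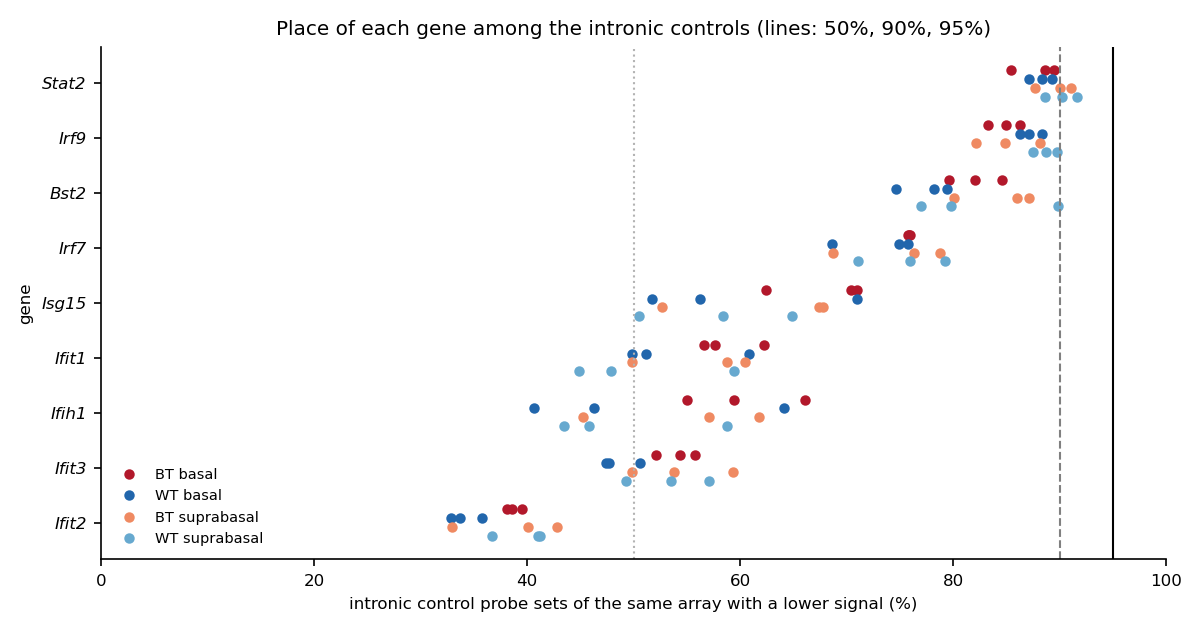
Each point is 1 array: the horizontal axis is the percentage of intronic control probe sets of that array with a signal below the gene's, and the rows are the 9 genes, with BT basal, WT basal, BT suprabasal and WT suprabasal arrays in 4 colours. All points lie left of the solid line at 95%, and Stat2 alone passes the dashed line at 90%, on 3 of 12 arrays.

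Lower marks let some members through. Against the 90th percentile of intronic controls, Stat2 exceeded the mark on 3 of 12 arrays and no other member did. Against the 95th percentile of 23 antigenomic controls, probe sets with no target in the mouse genome, Stat2 and Irf9 exceeded the mark on all 12 arrays, Bst2 on 6 and Irf7 on 2. Bst2 passed it on all 3 arrays of both suprabasal groups, which gave 2 members in BT basal, 2 in WT basal, 3 in BT suprabasal and 3 in WT suprabasal cells. Of all clusters, 21.03%, 19.12%, 24.86% and 24.57% passed it on all 3 arrays of these groups. That antigenomic mark itself lay between 6.287 and 7.181. It was at least 6.87 on every basal array and at most 6.776 on every suprabasal array. Bst2 at 6.78 passed it by 0.004 on the WT suprabasal array of code X667_06. At 6.84, Bst2 did not pass it on the BT basal array of code X721_05. Against the median of intronic controls, 8 members passed on all 3 BT basal arrays, against 5 in WT basal, 5 in BT suprabasal and 5 in WT suprabasal cells. Of all clusters, 56.11%, 52.13%, 51.2% and 54.63% passed that median on all 3 arrays of these groups. Since no member was above the main mark in any group, differences below are given as measured log2 differences and no fold is computed from them.

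Stat2 encodes a subunit of ISGF3 that activates transcription (chromosome 10, 128270576 to 128292849, mm10, plus strand). It measured 7.44, 7.34 and 7.21 on the BT basal arrays, against 7.63, 7.35 and 7.60 on the WT basal arrays. It measured 8.04, 7.17 and 7.50 on the BT suprabasal arrays, against 7.74, 7.68 and 7.73 on the WT suprabasal arrays. Its BT suprabasal values spread over 0.87, the whole range of the gene, and included both its highest and its lowest array, while the WT suprabasal values lay within a narrow band. The BT minus WT difference was -0.20 ± 0.18 (SE) in basal and -0.15 ± 0.18 in suprabasal cells, and limma, adjusting over all clusters, gave adjusted p = 0.646 and 0.908. With the sex pattern as a term both changed sign, to 0.09 and 0.14.

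Irf9 encodes the DNA-binding subunit of ISGF3 (chromosome 14, 55603985 to 55610030, plus strand). It measured 7.10, 7.07 and 7.06 on the BT basal arrays, against 7.56, 7.16 and 7.60 on the WT basal arrays. In suprabasal cells it measured 7.27, 6.92 and 7.21 on the BT arrays, against 7.55, 7.47 and 7.62 on the WT arrays. Every BT array was below every WT array of its layer, also the BT arrays of code X721_05, which share the sex pattern of the WT arrays. The BT minus WT difference was -0.36 ± 0.12 (SE; 95% interval -0.63 to -0.10) in basal and -0.41 ± 0.12 (-0.68 to -0.15) in suprabasal cells. Neither passed the test, with limma's adjusted p = 0.28 (unadjusted 0.0122) and 0.866 (unadjusted 0.0059). By p-value Irf9 ranked 2868 of 65956 clusters in the basal and 256 in the suprabasal comparison. With the sex pattern as a term the differences were -0.28 and -0.33, and with each array's background mark as a term, an alternative added after seeing the data, -0.29 and -0.36. The authors' deposited table gave Irf9 signed fold changes of -1.298 in basal cells (p = 0.0682, q = 0.378) and -1.326 in suprabasal cells (p = 0.0168, q = 0.602), where a negative sign means lower in BT.

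Irf7 encodes the factor that amplifies the transcription of type I interferon genes (chromosome 7, 141262706 to 141266481, minus strand). It measured 6.39, 6.29 and 6.53 on BT basal, 6.48, 6.37 and 6.22 on WT basal, 6.35, 6.32 and 6.51 on BT suprabasal and 6.50, 6.55 and 6.37 on WT suprabasal arrays. All 12 arrays lay within 0.33, and the groups overlapped in every comparison. BT differed from WT by 0.05 ± 0.09 (SE) in the basal layer (limma's adjusted p = 0.853) and by -0.08 ± 0.09 in the suprabasal layers (limma's adjusted p = 0.901).

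**Figure D2:**
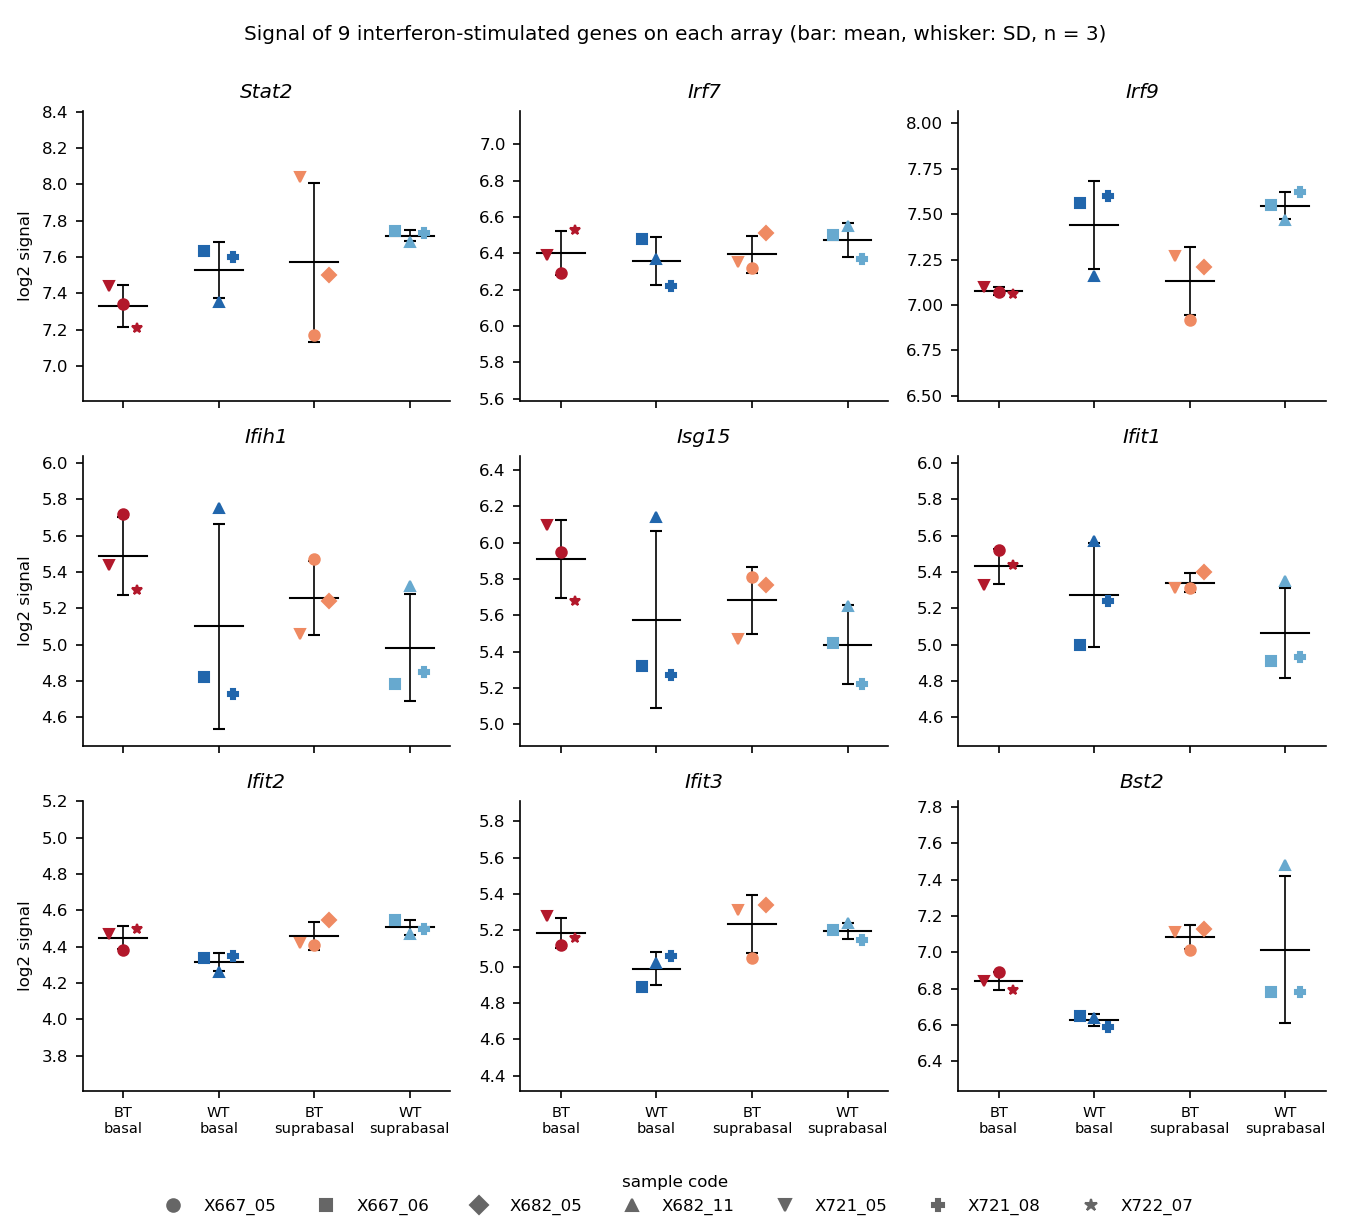
Each panel shows 1 gene: the vertical axis is the log2 signal, with the same span of 1.6 in every panel, the horizontal axis is the group, points are arrays with a symbol per sample code, bars are means and whiskers SDs (n = 3). Irf9 is lower in BT than in WT on every array of each layer, while the WT arrays of code X682_11 stand above the other WT arrays for Ifih1, Isg15 and Ifit1.

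Ifih1 encodes MDA5, a cytoplasmic sensor of long double-stranded RNA (chromosome 2, 62593289 to 62646255, minus strand). It measured 5.44, 5.72 and 5.30 on the BT basal arrays, against 4.82, 5.75 and 4.73 on the WT basal arrays. In suprabasal cells it measured 5.06, 5.47 and 5.24 on the BT arrays, against 4.78, 5.32 and 4.85 on the WT arrays. In each layer 2 of 3 WT arrays were below all BT arrays, and the WT array of code X682_11 was not. In the means Ifih1 differed by 0.39 ± 0.25 (SE) between BT and WT basal cells (limma's adjusted p = 0.525) and by 0.27 ± 0.25 between the suprabasal groups (limma's adjusted p = 0.879). Without the WT basal array of code X682_11 the basal difference was 0.71, with limma's adjusted p = 0.168. That was the largest value with 1 array left out, and the smallest was 0.20.

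The effectors include Isg15, a ubiquitin-like protein that is joined to other proteins during an antiviral response (chromosome 4, 156199424 to 156200818, minus strand). Isg15 measured 6.10, 5.95 and 5.68 on the BT basal arrays, against 5.32, 6.14 and 5.27 on the WT basal arrays. In suprabasal cells Isg15 measured 5.47, 5.81 and 5.77 on the BT arrays, against 5.45, 5.65 and 5.22 on the WT arrays. The same WT basal array, of code X682_11, held the highest Isg15 signal of all 12 arrays, and the groups overlapped. Isg15 differed between BT and WT by 0.33 ± 0.22 (SE) in basal cells (limma's adjusted p = 0.526), and by 0.24 ± 0.22 in the suprabasal layers (limma's adjusted p = 0.879). Without that array the basal difference was 0.61, with limma's adjusted p = 0.166. That was the largest value with 1 array left out, and the smallest was 0.18.

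The Ifit genes encode tetratricopeptide proteins, of which IFIT1 binds viral RNA that lacks the cap methylation of the host, and the 3 members lie on chromosome 19, plus strand (Ifit2 at 34550694 to 34576534, Ifit3 at 34583529 to 34588982 and Ifit1 at 34640871 to 34650009). Ifit1 measured 5.33, 5.52 and 5.44 on BT basal, 5.0, 5.57 and 5.24 on WT basal, 5.31, 5.31 and 5.40 on BT suprabasal and 4.91, 5.35 and 4.93 on WT suprabasal arrays. Its groups overlapped in all 4 comparisons, and its WT arrays of code X682_11 were again the highest of their groups. Between BT and WT, Ifit1 differed by 0.16 ± 0.15 (SE) in basal cells (limma's adjusted p = 0.654), and by 0.28 ± 0.15 in the suprabasal layers (limma's adjusted p = 0.866). Without the WT basal array of code X682_11 the basal difference of Ifit1 was 0.31, and without the WT basal array of code X667_06 it was 0.025.

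Ifit3 measured 5.28, 5.12 and 5.16 on the BT basal arrays, against 4.89, 5.02 and 5.06 on the WT basal arrays. In suprabasal cells Ifit3 measured 5.31, 5.05 and 5.34 on the BT arrays, against 5.20, 5.24 and 5.15 on the WT arrays. Every BT basal array was above every WT basal array, by 0.20 ± 0.08 (SE) in the mean, while the suprabasal groups overlapped, at 0.04 ± 0.08. The basal difference had limma's adjusted p = 0.365 (unadjusted 0.0416). Mouse Ifit3 has a close copy, Ifit3b, and probes may not tell the pair apart. Ifit3b had a cluster of its own, whose basal BT minus WT difference was -0.06 ± 0.14 (SE). Its suprabasal difference was 0.15 ± 0.14, and basal minus suprabasal in WT cells it was 0.15 ± 0.14. So Ifit3b did not share the basal sign of Ifit3, and what the probes share was not tested.

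Ifit2 had the lowest signal of the 9, at 4.47, 4.38 and 4.50 on BT basal, 4.34, 4.26 and 4.35 on WT basal, 4.42, 4.41 and 4.55 on BT suprabasal and 4.55, 4.47 and 4.50 on WT suprabasal arrays. All 12 values lay within 0.29. The WT basal arrays were below all arrays of the BT basal and of the WT suprabasal group. For Ifit2 the BT minus WT difference was 0.13 ± 0.06 (SE) in basal cells (limma's adjusted p = 0.382), and -0.05 ± 0.06 in the suprabasal layers (limma's adjusted p = 0.916).

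Bst2 encodes tetherin, a membrane protein that holds budding virus at the cell surface (chromosome 8, 71534256 to 71537437, minus strand). It measured 6.84, 6.89 and 6.79 on the BT basal arrays, against 6.65, 6.64 and 6.59 on the WT basal arrays. In suprabasal cells it measured 7.11, 7.01 and 7.13 on the BT arrays, against 6.78, 7.48 and 6.78 on the WT arrays. The BT basal arrays were all above the WT basal arrays, and the suprabasal groups overlapped because the WT array of code X682_11 exceeded every other array. Bst2 differed between BT and WT by 0.21 ± 0.15 (SE) in basal cells (limma's adjusted p = 0.562), and by 0.07 ± 0.15 in the suprabasal layers (limma's adjusted p = 0.954).

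Set together, 7 members had a higher and 2 a lower mean in BT than in WT basal cells, with a median difference of 0.16 against 0.04 over all clusters. Called by limma at an adjusted p under 0.05 were 0 of 9 members, and 0% of all clusters. At an unadjusted p under 0.05 there were 2 members, Irf9 and Ifit3, where 13.1% of all clusters reached that level. The BT and WT basal groups did not overlap for 4 members and for 16.8% of all clusters, with Irf9 lower in BT (5.01% of all clusters were) and Ifit2, Ifit3 and Bst2 higher in BT (11.8% of all clusters were). In suprabasal cells 5 members were higher and 4 lower in BT than in WT, with a median of 0.04 against -0.03 over all clusters. Here too limma called 0 of 9 members and 0% of all clusters, and Irf9 was the 1 member with an unadjusted p under 0.05, a level that 5.22% of clusters reached. It was also the 1 member whose suprabasal groups did not overlap, lower in BT. Of all clusters 12.3% did not overlap there, 9.79% lower and 2.52% higher in BT. The unpaired test that the series design names, with Benjamini-Hochberg adjustment, called 0 members in both layers.

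**Figure D3:**
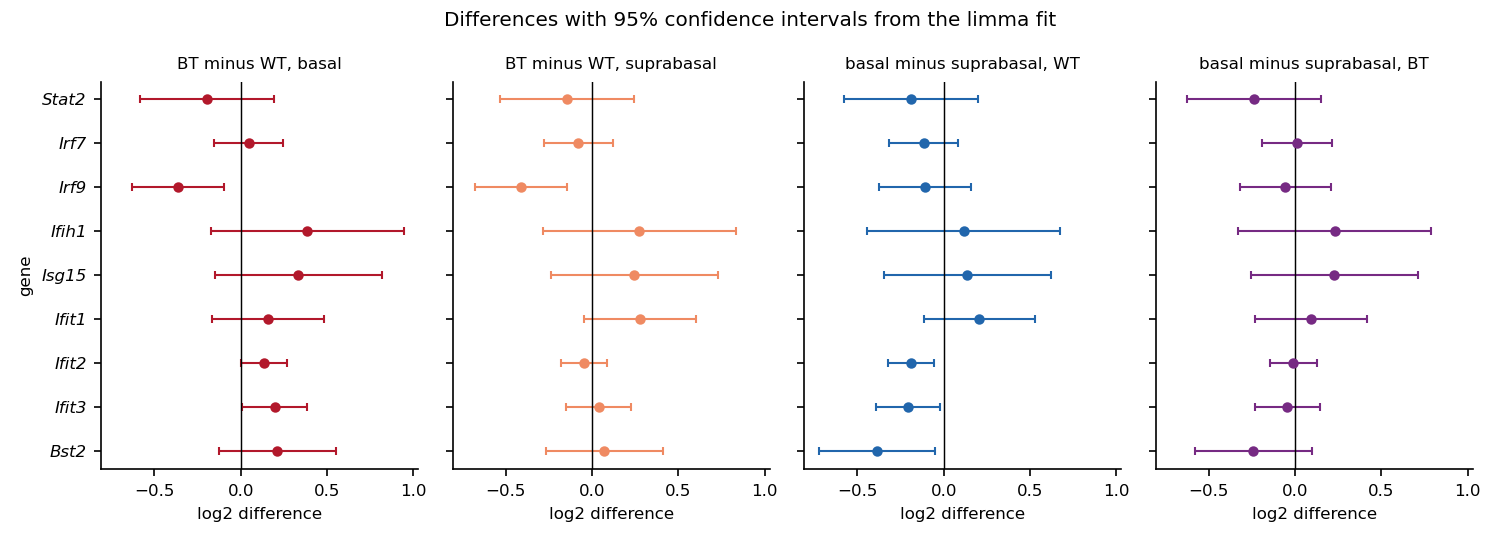
Points are log2 differences of the 9 genes from the limma fit and whiskers their 95% confidence intervals, in panels for BT minus WT in basal and in suprabasal cells and for basal minus suprabasal in WT and in BT cells. Irf9 is left of 0 in both genotype panels, from -0.41 to -0.36, and the widest intervals belong to Ifih1 and Isg15.

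The layer comparison in WT skin asked what separates basal from suprabasal cells without the transgenes. Of the 9 members, 3 were higher and 6 lower in WT basal than in WT suprabasal cells, with a median of -0.12 against -0.05 over all clusters. Limma called 0 of 9, where it called 1.45% of all clusters (957 of 65956), 0.406% higher and 1.04% lower in basal cells. At an unadjusted p under 0.05 there were 3 members, Ifit2, Ifit3 and Bst2, all lower in basal cells, where 22.8% of clusters reached that level. The differences were -0.19 ± 0.06 (SE) for Ifit2, -0.21 ± 0.08 for Ifit3 and -0.39 ± 0.15 for Bst2, with limma's adjusted p = 0.107, 0.182 and 0.169. Stat2 and these 3 did not overlap between the layers and were lower in basal cells. Of all clusters 27.5% did not overlap, 20.2% lower and 7.38% higher in basal cells. Without the WT suprabasal array of code X682_11 the Bst2 difference was -0.15. The design's unpaired test called 0 members.

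Between the layers of BT skin, 4 members were higher and 5 lower in basal cells, with a median of -0.01 against 0.02 over all clusters. Limma called 0 of 9 and 0% of all clusters, and 0 members had an unadjusted p under 0.05, a level that 7.45% of clusters reached. Bst2 did not overlap, with a difference of -0.24 ± 0.15 (SE) and limma's adjusted p = 0.756. Of all clusters 12.4% did not overlap, 4.27% lower and 8.08% higher in basal cells. The design's unpaired test called 0 members. The interaction, which asks whether the genotype difference is unequal between the layers, called 0 of 9 members and 0% of all clusters in limma's fit, and 0 members at an unadjusted p under 0.05 (10.2% of clusters). Its largest value was 0.18 ± 0.09 (SE) for Ifit2, with limma's adjusted p = 0.503.

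The members did not vary as 1 block over the arrays. The correlations given here are descriptions over 12 arrays that share 7 sample codes, and carry no test. Ifih1 and Isg15 correlated at 0.928, Ifih1 and Ifit1 at 0.847 and Isg15 and Ifit1 at 0.775. Irf9 ran against these 3, at -0.826 with Ifih1, -0.805 with Isg15 and -0.744 with Ifit1, and with Stat2, at 0.699. Ifit2 and Ifit3 correlated at 0.712 and Ifit3 and Bst2 at 0.622. Taken as deviations from the group means, pooled over all 12 arrays, Ifih1 still correlated with Isg15 at 0.897 and with Ifit1 at 0.812. Irf9 correlated with Ifih1 at -0.864, so the pattern did not rest on the group means alone. No correlation was taken within a single group. In every group except BT basal, the array lowest in Irf9 was the highest in Ifih1.

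In the mean of Ifih1, Isg15 and Ifit1, each centred on its own mean over the arrays, the BT basal arrays stood at 0.25, 0.35 and 0.10, against -0.33, 0.44 and -0.30 for the WT basal arrays. The BT suprabasal arrays stood at -0.10, 0.15 and 0.09, against -0.33, 0.06 and -0.38 for the WT suprabasal arrays. The WT code X682_11 was the highest of its group in both layers, and the other WT codes were the lowest of all arrays.

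The background mark of the arrays varied along with several members. Over 12 arrays the mark correlated with Stat2 at 0.729 and with Irf9 at 0.632, and with Ifih1 at -0.743, Isg15 at -0.724 and Ifit1 at -0.552. As deviations from group means these were 0.763, 0.685, -0.721, -0.708 and -0.51. Among the 29476 genes that were never above the mark, the central 90% of such correlations ran from -0.599 to 0.612. With the mark as a term, the basal BT minus WT difference was 0.22 for Ifih1, 0.19 for Isg15 and 0.09 for Ifit1. What the array level contributes to the member differences beyond these values was not tested.

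**Figure D4:**
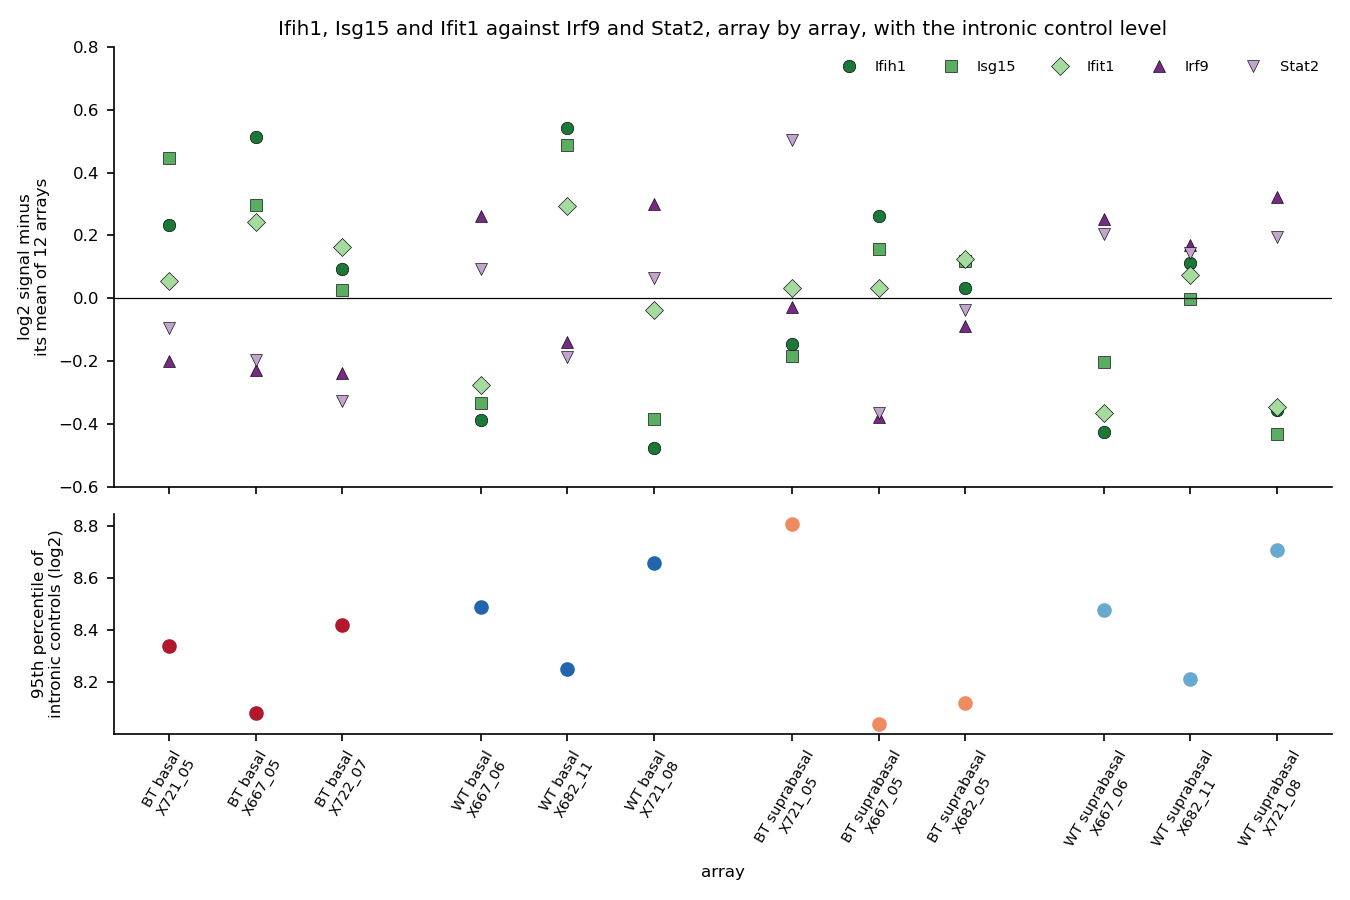
The upper panel plots the log2 signal of 5 genes minus each gene's mean over 12 arrays, and the lower panel the 95th percentile of the intronic controls of the same array (log2). On WT arrays of codes X667_06 and X721_08, with marks between 8.479 and 8.709, Ifih1, Isg15 and Ifit1 lie below 0 and Irf9 and Stat2 above it.

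Genes with a like pattern were sought among 5679 genes above the mark on at least 6 of 12 arrays. The mean of the 9 centred members was most like Adgrg1 (r = 0.901), Wwp2 (0.879), Nudt4 (0.853), Aplp2 (0.844), Gm5915 (0.831), Inf2 (0.829), Rab38 (0.828), Tmbim6 (0.827), Ppm1d (0.812) and Ctsb (0.807). For single members the nearest were Bok, Il2rg and Psmd13 for Ifih1 (0.96 to 0.968), Bok, Slc29a3 and Lsm4 for Isg15 (0.94 to 0.955) and Myadm, Flna and Gpx4 for Ifit1 (0.946 to 0.958). Idh2, Nedd4l and Paip2 were nearest to Stat2 (0.939 to 0.957) and Efna4, Nrbp2 and Gtf2i to Irf9 (0.913 to 0.932). For Irf7, Mcrip1, Apoe and Pthlh reached 0.688 to 0.734. For Bst2, Tmbim6, Krtap17-1 and Tex264 reached 0.843 to 0.866. For Ifit2, Ctf1, Mir5135 and Gm17604 reached 0.871 to 0.921. For Ifit3, Gm5915, Csnk1e and Sry reached 0.778 to 0.81. These are the highest of 5679 values each.

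The rest of the pathway was read from 7 lists of 122 genes, of which 113 were measured. On all 12 arrays 6 of the 113 were above the background mark, as were 9.31% of all genes. They were Jak1, the kinase shared by interferon receptors, and Ifitm2, a membrane protein that blocks virus entry. The others were B2m, H2-K1 and H2-D1 of antigen presentation, and Ptpn11, a phosphatase that dampens the signal. On no array were 91 of the 113 above it, near the share over all genes, which was 79.6%. All 18 measured interferon genes were among these 91. The highest were Ifnl2 at 7.40, Ifnl3 at 7.39 and Ifna14 at 6.75 (log2 mean of 12 arrays). By contrast 6 of 9 receptor and kinase genes passed the mark on at least 1 array, with Jak1 at 10.26, Ifngr1 at 8.38 and Ifnar1 at 8.38. Of 7 further STAT and IRF genes 4 did, among them Irf3, a factor that switches on interferon genes, at 8.50.

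Of 13 sensors and adaptors 1 passed on at least 1 array, the adaptor Myd88 at 8.72, followed in level by Ikbke at 7.58 and Mavs at 7.51. Of 49 further interferon-stimulated genes 4 passed, and the highest means were those of Ifitm2 at 10.74, Ifitm3 at 10.26 and Trim25 at 8.18. Of 9 antigen presentation genes 5 passed, led by B2m at 9.76, H2-K1 at 9.40 and H2-D1 at 9.23. Of 8 genes in the list of negative regulators, which also held the interferon-stimulated gene Isg20, 2 passed. The highest means there were Ptpn11 at 9.18, Pias1 at 8.48 and Socs1 at 7.47.

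**Figure D5:**
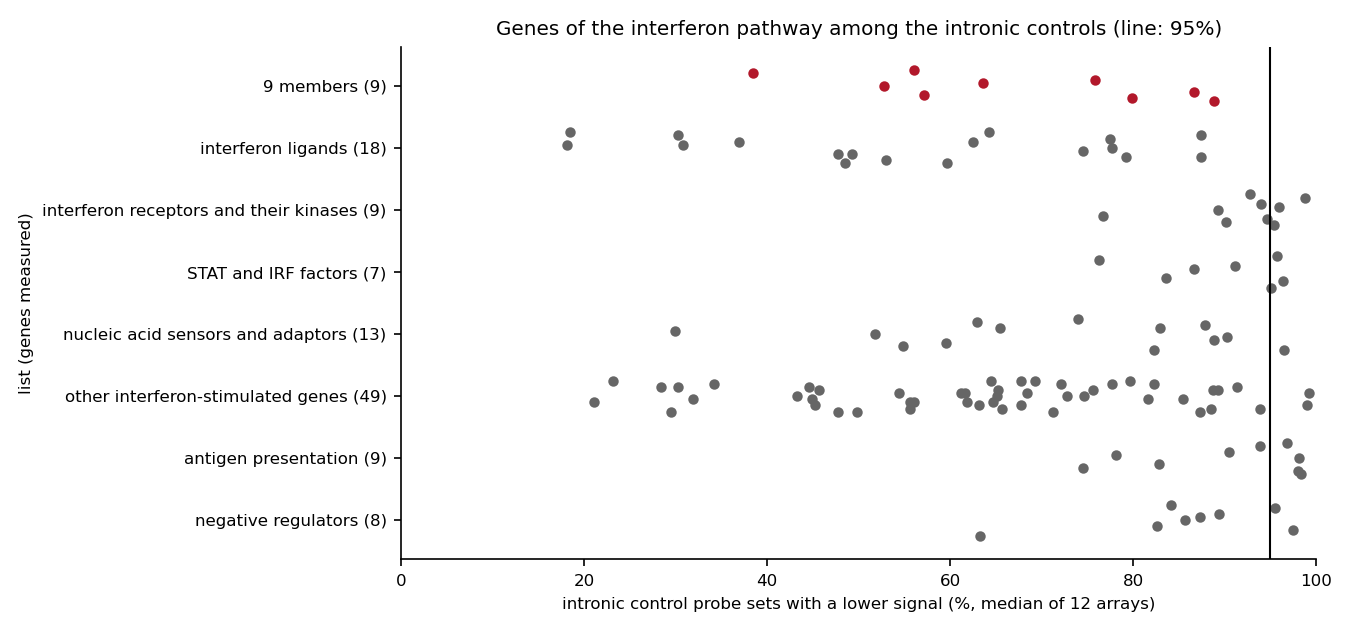
Each point is 1 gene and the horizontal axis is the percentage of intronic controls with a lower signal (median of 12 arrays), in rows for the 9 members and for 7 pathway lists. The 9 members spread from 38.4% to 88.9%, left of the line at 95%, while single genes of every pathway list except the interferon genes lie right of it.

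In the genotype comparisons limma called 0 of the 113 pathway genes in either layer, as it called 0% of all clusters, and the list medians over all 113 were 0.04 in basal and -0.02 in suprabasal cells, against 0.04 and -0.03 over all clusters. Between the layers of BT cells and in the interaction it called 0 as well. Between WT layers the median over the 113 was -0.04, against -0.05 over all clusters.

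Between WT layers, 2 of 18 measured interferon genes were called, both below the mark and lower in basal cells. Of all clusters 1.04% were called lower there. Called or not, 17 of the 18 were lower in basal cells, with a median of -0.13 against -0.05 over all clusters. The WT basal arrays had medians over all clusters of 5.36, 5.28 and 5.34, against 5.42, 5.39 and 5.46 on the WT suprabasal arrays. The part of this offset in the count of 17 was not tested. Ifnz measured 5.57, 5.45 and 5.57 on the WT basal arrays, against 5.75, 5.84 and 5.94 on the WT suprabasal arrays, a difference of -0.31 ± 0.06 (SE) with limma's adjusted p = 0.0455. Ifna4 measured 6.17, 6.17 and 6.29 on the WT basal arrays, against 6.51, 6.70 and 6.57 on the WT suprabasal arrays, a difference of -0.38 ± 0.08 (SE) with limma's adjusted p = 0.0474. Both belong to families of closely related genes on chromosome 4, so their probes may read other members. Ifnz was called under 9 and Ifna4 under 8 of 25 alternatives, and centring the arrays ended both calls, with limma's adjusted p = 0.0995 and 0.0968. Of the 12 arrays left out in turn, 9 ended the call of Ifnz and 10 that of Ifna4.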

How the data were processed

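Sorted mouse keratinocytes were measured on 12 Affymetrix MTA-1_0 arrays, grouped by the sample titles. The authors deposited log2 signals per cluster, produced by RMA in Affymetrix Expression Console on mm10 per the submitters' processing notes, and annotated with NetAffx build 34 per the file headers. RMA makes the distributions of arrays alike, so a change common to most genes could be lost. The deposited table also holds signed fold scores, p-values and q-values of the authors' comparisons, per the file headers, with no account of how the q-values were computed in the sources used here.

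Of 72688 probe sets, 6732 controls and normalization sets were left out of the tests, and all 65956 other clusters, dim ones included, were tested. Of these, 30638 had 1 symbol in the platform annotation and 2176 had several. A further 6955 clusters took the symbol of the deposited file and 26187 had none. A gene with several clusters was read from the one with the highest mean. One limma fit of 4 group means to all 12 arrays, with Benjamini-Hochberg adjustment over all clusters, gave every comparison, called at adjusted p under 0.05, and differences are BT minus WT or basal minus suprabasal. The number of arrays limits the precision. The fit was tested on simulated data. At a simulated log2 change of 0.5 it recovered 54% in the BT minus WT basal comparison and 34% between WT layers. At a change of 1.0 it recovered 90% and 84%. Changes as small as those of the members can thus go uncalled.

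The 9 members and the pathway and marker lists were chosen with earlier results of these data known. All 9 members are described. Of each pathway list, called genes and the 3 with the highest mean are named, and for pattern likeness the 10 highest for the mean and 3 per member. A few genes picked by this rule are not reported here. Same-code arrays deviated together in WT layers (correlations 0.269, 0.533 and 0.37 for the 3 pairs), where pairs of different codes correlated at up to 0.061. Between genotypes, however, pairs of different codes reached 0.485, for the suprabasal arrays of codes X721_05 and X721_08, which share their first number. Pairs without a shared first number reached 0.383, for the basal arrays of codes X667_05 and X682_11. The codes may therefore pair the WT layers, which the labels do not state. In BT layers the 2 same-code pairs correlated at 0.136 and 0.241, and pairs of different codes at up to 0.231, so no pairing is read there.

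Alternatives were centring, cyclic loess, dim and unnamed clusters left out, other moderation, array weights, code blocks, the sex pattern (Xist split at 8), only the groups compared, the unpaired test of the series design, each array left out and other background marks. The background mark as a term was added after seeing the data. Fits used limma 3.58.1 in R 4.3.3 with the data.table package (1.17.8), and tables and plots used pandas 2.3.3, numpy 2.4.6 and matplotlib 3.10.9 in Python 3.11.15.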

Additional observations from a re-analysis of the deposited data

How the results depend on the processing

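Of 1060 member differences under 25 alternatives, 0 were called and 50 had a changed sign, and 26 of the 45 member differences never changed sign. The lowest limma adjusted p of a member under any of them was 0.0669, for Ifit2 between WT layers with the code as a random replicate block. Both genotype differences of Irf9 kept their sign throughout, from -0.50 to -0.28 in basal and -0.48 to -0.31 in suprabasal cells, with lowest adjusted p-values of 0.112 and 0.264 in limma's fits. Signs changed as follows, and the causes were not tested. Centring gave -0.0033 for Irf7 (BT minus WT, basal), 0.0067 for Ifit2 (BT minus WT, suprabasal) and interactions of -0.0533 for Irf9 and -0.0133 for Isg15. Cyclic loess gave -0.0008 for Irf7 (BT minus WT, basal) and interactions of -0.0148 for Ifih1 and -0.0469 for Isg15. Array weights gave 0.005 for Ifit2 (BT minus WT, suprabasal), -0.0619 for Ifih1 and -0.0116 for Isg15 (WT layers), -0.0465 for Irf7 (BT layers) and interactions of 0.0071 for Stat2 and -0.0434 for Irf9. The sex term gave 0.0933 and 0.143 for Stat2 (BT minus WT, basal and suprabasal). The code as a fixed replicate block gave 0.01 for Ifit2 and 0.02 for Ifit3 (BT layers), and the paired fits changed no member call.

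With single arrays left out, differences that changed sign ran from -0.0217 to 0.108 for Irf7 (BT minus WT, basal). In suprabasal cells they ran from -0.382 to 0.0533 for Stat2, -0.0167 to 0.128 for Ifit3 and -0.0467 to 0.303 for Bst2. In WT layers they ran from -0.187 to 0.0333 for Irf9, -0.208 to 0.302 for Ifih1 and -0.145 to 0.29 for Isg15. In BT layers they ran from -0.0533 to 0.0683 for Irf7, -0.163 to 0.0117 for Irf9, -0.035 to 0.035 for Ifit2 and -0.138 to 0.0067 for Ifit3. The interactions ran from -0.25 to 0.185 for Stat2, -0.09 to 0.13 for Irf9, -0.0717 to 0.438 for Ifih1, -0.0633 to 0.372 for Isg15, -0.26 to 0.0333 for Ifit1 and -0.09 to 0.26 for Bst2.

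The number of members above background in BT basal, WT basal, BT suprabasal and WT suprabasal cells was 8, 5, 5 and 5 against the median of intronic controls and 2, 2, 3 and 3 against the antigenomic mark. In the same order, the shares of all clusters were 56.11%, 52.13%, 51.2% and 54.63% for the median. For the antigenomic mark they were 21.03%, 19.12%, 24.86% and 24.57%. Asking for the 95th percentile on only 1 of 3 arrays, or for the 99th percentile, left 0, and asking for the 90th left 0 on all 3 arrays of a group. Each member had 1 cluster, so another choice of cluster could give no value.

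The number of all clusters called between WT layers also depended on the setting. The 957 called clusters (28% higher in basal cells) became 342 when centred (66.4% higher), 262 with loess (49.6% higher), 476 with trend and robust moderation, 1520 among brighter clusters, 1860 with array weights, 3600 and 2147 with the code or its first number as a random replicate block, 4391 with the background mark as a term, 4 with only those groups and 0 by the design's unpaired test. They ran from 0 to 2903 with single arrays left out. In basal cells the genotype comparison called 87 clusters without the WT array of code X667_06 and 1 without the BT array of code X722_07. Between BT layers 126 clusters were called without the suprabasal array of code X667_05 and 1 without the basal one.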

Other observations

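Among the 113 measured pathway genes, Ddx58, which encodes the RNA sensor RIG-I, varied most nearly as the mean of Ifih1, Isg15 and Ifit1 did, with r = 0.993 over 12 arrays that share 7 codes. It was picked after its values were seen, and the correlation is a description. Like Ifih1, the gene of the related sensor MDA5, Ddx58 was above the background mark on 0 of 12 arrays. Its log2 signal averaged 7.12 in BT basal and 6.58 in WT basal arrays, and 6.78 in BT suprabasal and 6.40 in WT suprabasal arrays. Between BT and WT it differed by 0.54 ± 0.29 (SE) in the basal layer (limma's adjusted p = 0.444) and by 0.38 ± 0.29 in the suprabasal layers (limma's adjusted p = 0.869), and neither passed the test. The next highest correlations with the same mean were those of Rnf213, a large ubiquitin ligase, at 0.929, and of Psmb10, a subunit of the immunoproteasome, at 0.925. Psmb10 was above the mark on 5 of 12 arrays and Rnf213 on 0. In the opposite direction stood Tor3a at -0.816 and the adaptor gene Myd88 at -0.624.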
